A study of Mus musculus with 3 samples.

Results

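The IL-22 receptor and STAT3 signalling genes described here are 9 of the 35824 genes in the count table: the receptor chains Il22ra1 and Il10rb, the kinases Jak1 and Tyk2, the transcription factor Stat3, its inhibitor Socs3, and the target genes Fut2, Lcn2 and Bcl3. They were chosen by name, as parts and targets of 1 pathway, with earlier results of these data known. Each matched 1 row of the table. All 9 lie in the epithelial arm of a co-culture study, measured by RNA-seq in intestinal epithelial cells (IEC) sorted by FACS from mouse small intestinal organoids (SIO) that had been grown with ILC3 (IEC + ILC3). SIO are epithelial structures grown from crypts in a gel matrix. The organoids came from female CD45.1 C57BL/6 mice, aged 6 to 8 weeks by the sample labels and 6 to 10 weeks by the series' design text, and the ILC3 came from the small intestinal lamina propria of GFP reporter mice. Every well held medium with EGF, R-spondin and Noggin, to which IL-2, IL-7 and IL-15 were added, and co-culture lasted 4 days. There is 1 condition, with 3 libraries labelled biological replicates 1, 2 and 3 and called A, B and C. The labels mark A and B as used in the study's final analysis and C as left out of it. No source used here says whether the libraries came from separate donors, so their spread may be technical. IEC ONLY samples were not analysed here, and no level below is a response to ILC3. In bulk samples, fewer cells of a type and less RNA per cell cannot be told apart.

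IL-22 is a cytokine that ILC3 make and that epithelial cells sense. Its receptor pairs Il22ra1, the chain that gives specificity and is found mainly on epithelial and other non-immune cells, with Il10rb, a widely expressed chain that the receptors for IL-10 and type III interferon also use. The kinases Jak1 and Tyk2 sit on the receptor chains and phosphorylate Stat3, which enters the nucleus and activates genes for mucosal defence and repair, while Socs3, itself a Stat3 target, feeds back to dampen the receptor. Fut2 adds fucose to surface glycans of the gut, Lcn2 encodes lipocalin-2, which binds bacterial siderophores, and Bcl3 is an IkB-like nuclear partner of NF-kB subunits.

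Promoter windows, each 300 bases long with 250 bases before and 50 after a RefSeq start site (GRCm38.p6), were found for 7 of the 9 genes. Il10rb and Fut2 had no entry. The letters TTCNNNGAA, the spacing that STAT3 favours, and a wider form with the same ends and 1 base more between them were searched. Both read the same on either strand. TTCNNNGAA was found in 1 of the 7 windows, that of Socs3, and in 8.30% of all 32851 windows. The wider form was found in that of Lcn2 alone among the 7, and in 6.95% of all windows. The windows of 3 genes are shown, since the levels of Il22ra1 and Lcn2 separated library C from A and B, while Socs3 held the only TTCNNNGAA. Capitals mark matches to either motif, and the sequences run 5′ to 3′ on the strand of the gene. Il22ra1 is at chr4:135727909-135728208 on the plus strand, Lcn2 at chr2:32387690-32387989 on the minus strand and Socs3 at chr11:117969317-117969616 on the minus strand.
Il22ra1: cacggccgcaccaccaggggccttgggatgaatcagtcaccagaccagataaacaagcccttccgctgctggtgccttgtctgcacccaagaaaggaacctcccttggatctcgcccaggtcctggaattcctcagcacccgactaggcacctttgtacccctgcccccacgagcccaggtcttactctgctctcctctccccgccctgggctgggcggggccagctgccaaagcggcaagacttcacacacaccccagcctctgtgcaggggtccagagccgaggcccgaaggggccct
Lcn2: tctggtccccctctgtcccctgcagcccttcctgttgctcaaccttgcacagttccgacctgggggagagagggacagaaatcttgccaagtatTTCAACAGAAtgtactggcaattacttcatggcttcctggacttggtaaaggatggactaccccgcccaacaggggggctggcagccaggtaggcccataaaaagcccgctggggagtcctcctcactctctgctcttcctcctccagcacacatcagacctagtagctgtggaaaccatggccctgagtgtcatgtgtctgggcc
Socs3: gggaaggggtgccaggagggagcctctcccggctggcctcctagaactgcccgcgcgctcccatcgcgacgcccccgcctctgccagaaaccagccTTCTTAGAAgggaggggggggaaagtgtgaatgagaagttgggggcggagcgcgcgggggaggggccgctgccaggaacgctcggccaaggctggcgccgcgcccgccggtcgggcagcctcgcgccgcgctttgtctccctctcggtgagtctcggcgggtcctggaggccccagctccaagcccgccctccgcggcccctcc

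The match in Socs3, TTCTTAGAA, starts at position -154 from the RefSeq start site, and that in Lcn2, TTCAACAGAA, at position -156 from its own. The RefSeq start site of Socs3 lies 180 bases upstream of the start of the longest Socs3 transcript in GENCODE M21. The sequence next to that second start is thus not in the window. For the Socs3 window alone of the 7, the bases after the start site were not found in any GENCODE M21 transcript of the gene. An NF-kB-like motif (GGG and CC with 5 bases of any kind between, on either strand) was in 6 of the 7 windows, all but that of Stat3, and in 50.8% of all windows. Bcl3 held 5 overlapping or separate matches to it. A C/EBP-like motif, TTGCNNAA on either strand, was in the Lcn2 window alone among the 7 and in 10.8% of all windows. A match is a run of letters and not a tested site.

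The 3 libraries held between 17946361 and 28913885 counts. Library C was the deepest but had at least 10 counts for 11986 genes, against 12549 in A and 12964 in B. Of the 9617 genes with at least 100 counts in both A and B, 65 (0.676%) were listed at 0 in C, whereas the same check found 3 genes at 0 in A and 1 in B. Values below are CPM, counts scaled to a library total of 1000000 with TMM factors, and their 95% exact Poisson intervals cover counting error only.

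Il22ra1, the chain that makes a cell responsive to IL-22, had the largest coefficient of variation of the 9 genes, 116% (ENSMUSG00000037157, chromosome 4, 135728172 to 135752140, plus strand, GRCm38, protein coding). On a log2 scale with 1 CPM added, Lcn2 had the larger range over the 3 libraries, 3.84 against 3.33 for Il22ra1. Il22ra1 counts and CPM follow. It had 58, 249 and 5 counts in A, B and C, which are 3.17, 10.9 and 0.175 CPM. The intervals were 2.41 to 4.10 in A, 9.55 to 12.3 in B and 0.0568 to 0.408 CPM in C, so none of the 3 libraries overlapped another. The mean was 4.73 ± 5.51 CPM (SD, n = 3), an SD larger than the mean, and 7.01 ± 5.43 CPM (SD, n = 2) over A and B alone.

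The shared chain Il10rb (ENSMUSG00000022969, chromosome 16, 91406164 to 91425834, plus strand) was steady by comparison, at 94.1, 63.2 and 96.6 CPM in A, B and C. Library B was the low one, and A and C overlapped within counting error. The mean was 84.6 ± 18.6 CPM (SD, n = 3). Il10rb was thus lowest in the library where Il22ra1 was highest. Per kilobase of exon, Il10rb was 20.0 times as high as Il22ra1 in A, 3.93 times in B and 373 times in C, and the last ratio rests on 5 counts of Il22ra1. Il10rb shares 569 exonic bases, 14.9% of its own, with Gm21970 on the same strand, a gene that was at 0 in all 3 libraries. No counts from the shared bases were thus assigned to Gm21970, and whether any arose from it was not tested.

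Jak1, the kinase that binds the Il22ra1 chain (ENSMUSG00000028530, chromosome 4, 101152367 to 101265282, minus strand), was the most even of the 9 genes, with 92.3, 104 and 103 CPM in A, B and C. Its mean was 99.8 ± 6.49 CPM (SD, n = 3), a coefficient of variation of 6.50%. Tyk2, the kinase of the Il10rb chain (ENSMUSG00000032175, chromosome 9, 21104068 to 21131243, minus strand), stood at 26.8, 46.2 and 14.2 CPM in A, B and C. Its 3 counting intervals did not overlap, and the mean was 29.1 ± 16.1 CPM (SD, n = 3). Per kilobase, Jak1 lay above Tyk2 in every library, by 3.27 times in A, 2.14 in B and 6.90 in C. The antisense gene 1700084C06Rik covers 554 exonic bases of Tyk2, 8.07% of them, and was not among the genes counted. Over these bases, without known strand, its reads cannot be told from those of Tyk2.

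Stat3, the transcription factor that the receptor activates (ENSMUSG00000004040, chromosome 11, 100885098 to 100939540, minus strand), was at 108, 114 and 85.5 CPM in A, B and C, with a mean of 102 ± 15.0 CPM (SD, n = 3). A and B overlapped within counting error and C lay below both. Its 3′ end shares 72 exonic bases with Stat5a on the other strand. Socs3, the feedback inhibitor (ENSMUSG00000053113, chromosome 11, 117966079 to 117970047, minus strand), was at 21.4, 28.4 and 40.4 CPM in A, B and C. Like Stat3 it was higher in B than in A, but for Socs3 C lay above both. The mean of Socs3 was 30.1 ± 9.65 CPM (SD, n = 3). Its intervals did not overlap. The ratio of Stat3 to Socs3 per kilobase was 1.53 in A, 1.22 in B and 0.641 in C.

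The target genes behaved unlike each other. Bcl3 (ENSMUSG00000053175, chromosome 7, 19808462 to 19822770, minus strand) was at 41.9, 52.7 and 48.0 CPM in A, B and C, a mean of 47.5 ± 5.42 CPM (SD, n = 3), and C lay between A and B. The antisense gene Gm16175 covers 161 of its exonic bases. Fut2 (ENSMUSG00000055978, chromosome 7, 45648591 to 45666394, minus strand) had 99, 276 and 302 counts, so that A, at 5.41 CPM, was the low library and B and C, at 12.0 and 10.6 CPM, overlapped within counting error. Its mean was 9.33 ± 3.48 CPM (SD, n = 3). The neighbouring and closely related gene Sec1 was at 0 in all 3 libraries.

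Lcn2 (ENSMUSG00000026822, chromosome 2, 32384633 to 32388252, minus strand) was present in A and B, with 185 and 305 counts, or 10.1 and 13.3 CPM, and was listed at 0 in C. A count of 0 in C allows up to 3 counts, or 0.105 CPM. Over A and B the mean was 11.7 ± 2.25 CPM (SD, n = 2). That is 112-fold above the floor and 90.7-fold above the upper end of the Poisson interval for C, 0.129 CPM. Lcn2 is 1 of the 65 genes noted above that had at least 100 counts in A and in B and none in C.

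**Figure D1:**
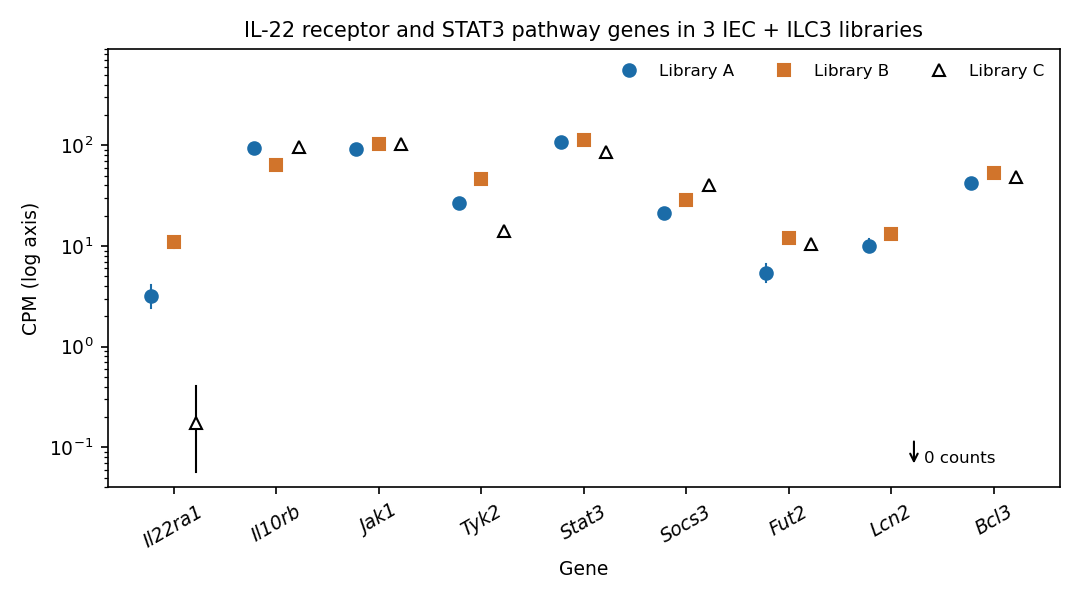
Level of each gene in libraries A (circles), B (squares) and C (open triangles), in CPM on a log axis, with exact 95% Poisson intervals as bars, most of them shorter than the symbols. The arrow marks Lcn2 in C, with 0 counts; Il22ra1 in C lies at 0.175 CPM, and the other values in C lie between 10.6 and 103 CPM.

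Compared per kilobase of merged exons, which allows for gene length, the order from the top was Il10rb at 22.2 ± 4.88, Bcl3 at 19.2 ± 2.19, Jak1 at 13.8 ± 0.898, Stat3 at 10.7 ± 1.57, Socs3 at 10.4 ± 3.34, Tyk2 at 4.24 ± 2.35, Lcn2 at 2.97 ± 2.65, Il22ra1 at 1.84 ± 2.14 and Fut2 at 1.72 ± 0.640 CPM per kilobase (SD, n = 3). Il10rb and Bcl3 did not differ beyond their spread over the 3 libraries, nor did Stat3 and Socs3, and the same held from each of Tyk2, Lcn2 and Il22ra1 to the next gene in the order. Within each library, though, Tyk2 lay above Lcn2, at 3.91 against 3.85 in A, 6.73 against 5.07 in B and 2.07 against 0 in C. The other overlapping neighbours changed order in B or in C. The ranges of the neighbours Bcl3 and Jak1, Jak1 and Stat3, and Socs3 and Tyk2 did not overlap. The shared chain Il10rb lay above 81.0% of the 13604 genes tested, Jak1 above 72.8% and Stat3 above 68.0%, while Il22ra1 lay above 33.4% and Fut2 above 32.2%.

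**Figure D2:**
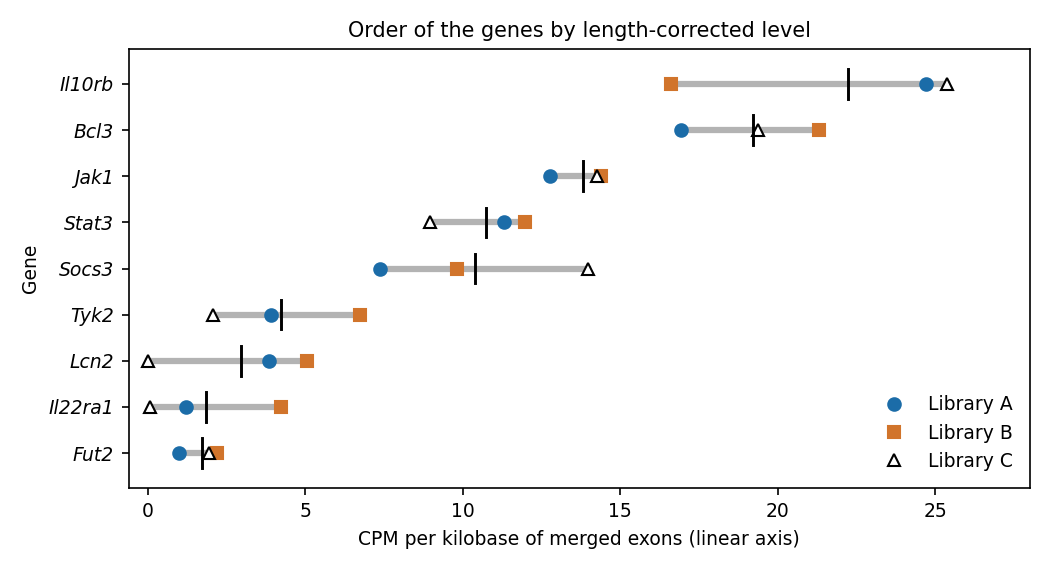
The same genes ordered by CPM per kilobase of merged exons on a linear axis, with circles for library A, squares for B and open triangles for C, grey bars for the range over the 3 libraries and black ticks for their mean. Il10rb spans 16.6 to 25.4 and overlaps Bcl3, while the lowest genes, from Tyk2 down, overlap their neighbours.

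Library A and library B, both used by the study, were set side by side first. Of the 9 genes 8 were higher in B than in A, all but Il10rb, and 51.5% of the 13604 genes tested were higher in B. The log2 difference of B from A was largest for Il22ra1, at 1.78 (3.42-fold), then Fut2 at 1.15 (2.22-fold) and Tyk2 at 0.78 (1.72-fold). It was 0.08 for Stat3 and 0.17 for Jak1. With 1 library on each side these differences have no replicate check.

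The next comparison asked whether library C, which the study left out, stood apart for this pathway. Il22ra1 and Lcn2 were lower in C than in A and B, and no other gene of the 9 passed edgeR's quasi-likelihood test with an adjusted p under 0.1 (Benjamini-Hochberg, 13604 genes). These are 2 of 9 genes, both lower, where 6.56% of all genes tested were called in either direction, 5.20% as lower and 1.36% as higher. Both passed the filter on low counts only through A and B, where they were high, and a gene this low in C could enter the test in no other way. The 9 genes were also chosen with earlier results of these data known. Setting 2 of 9 beside the share over all genes is thus a description and no test of the pathway. The test sets 1 library against a pair, takes C to vary like A and B, and compares libraries rather than conditions.

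For Il22ra1 the log2 fold change in C was -5.28 (standard error 1.30, 95% interval -8.26 to -2.30, adjusted p = 0.0787 from edgeR). Relative to C, the mean of A and B was 40.1-fold higher, or 17.2-fold to 124-fold within the counting interval of the 5 counts in C, while A alone was 18.1-fold and B alone 62.1-fold higher. At a threshold of 0.05 Il22ra1 was not called. For Lcn2 the adjusted p was 0.0152 from edgeR, and the fold given above against the floor of 3 counts stands in place of a fitted fold change, since C was at 0. Tyk2 had the next largest difference, a log2 fold change of -1.37 (standard error 0.44, 95% interval -2.38 to -0.35), with an adjusted p of 0.134 from edgeR that missed the threshold. Tyk2 was called by the DESeq2 Wald test (adjusted p = 0.0920), which called 11.9% of all genes tested. It was also called without the filter on low counts (adjusted p = 0.0215 from edgeR), where 2402 of 17457 genes tested were called. With at least 10 counts required in every library it was called too (adjusted p = 0.0958 from edgeR), where 1030 of 11232 were called. The main fit called 892 of 13604.

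The other 6 genes gave log2 fold changes in C between -0.38 and 0.70. That of Socs3 was 0.70 (standard error 0.35, 95% interval -0.11 to 1.50, adjusted p = 0.279 from edgeR), and that of Stat3 -0.38 (standard error 0.29, 95% interval -1.04 to 0.28, adjusted p = 0.448 from edgeR). Il10rb, Fut2, Jak1 and Bcl3 had values of 0.29, 0.27, 0.07 and 0.02. Their intervals ran from -0.47 to 1.05, -1.19 to 1.73, -0.59 to 0.72 and -0.71 to 0.74, so a doubling is within the interval for Il10rb and for Fut2 and outside it for Jak1 and Bcl3. The direction for Bcl3 turned, at -0.00253, with plain library totals. By range alone, C lay outside A and B for 6 of the 9 genes, below for Il22ra1, Tyk2, Stat3 and Lcn2 and above for Il10rb and Socs3, while 78.6% of all genes tested lay outside, 41.0% below and 37.6% above. The median log2 fold change was 0.02 over the 9 genes and -0.10 over all genes tested.

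**Figure D3:**
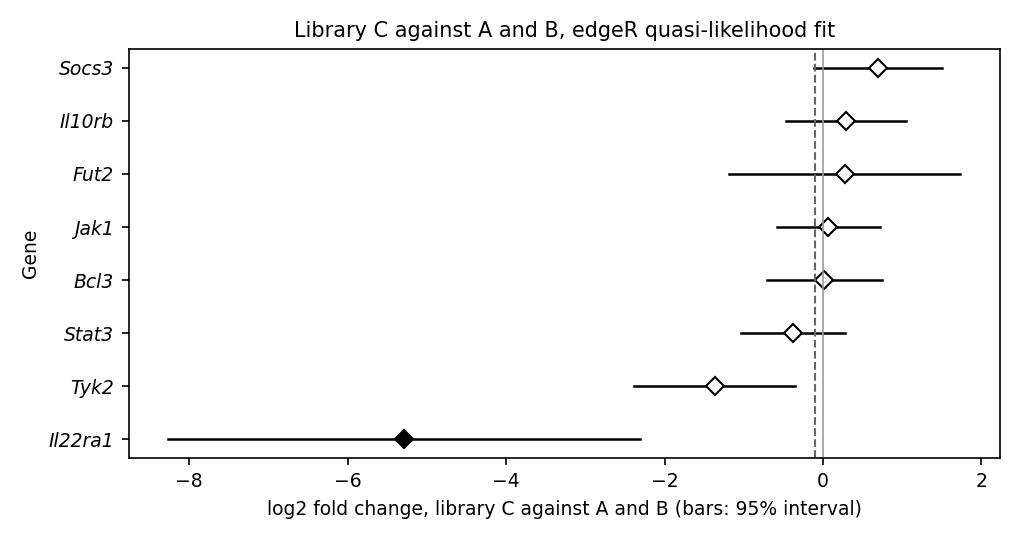
Fitted log2 fold change of library C against A and B (horizontal axis) for the 8 genes with counts in C, with 95% intervals as bars, filled symbols for an adjusted p under 0.1 and a dashed line at the median of all genes tested (-0.10). Il22ra1 at -5.28 is the only filled symbol; the interval of Tyk2 ends below 0 at -0.35, although its adjusted p is 0.134 from edgeR, and those of the other 6 genes include 0.

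Genes around the pathway were described from fixed lists. Of 7 receptors and binding proteins of the IL-10 family, 4 were tested, with a median log2 fold change of -0.21. Among them 1 was called lower in C (Il22ra1) and none higher, beside 5.20% and 1.36% of all genes tested. The interferon lambda receptor chain Ifnlr1, a partner of Il10rb, was at 8.03, 11.9 and 6.15 CPM in A, B and C, and Il20rb, a chain of the IL-20 receptors, at 2.68, 1.13 and 4.09 CPM. Il20ra, Il10ra and the secreted IL-22 decoy Il22ra2 were at 0 in all 3 libraries. All 7 ligands of the family, Il22 among them, were also at 0. Receptors of the gp130 family, which signal to Stat3 through other cytokines, gave 0 calls among 4 tested with edgeR, where 3 had an unadjusted p under 0.05 (22.3% of all genes tested did) and the DESeq2 Wald test called 1 (Il6ra, at 0 in C). The Wald test called 11.9% of all genes tested, and Il6ra entered it only through A and B. The 4 tested include Lifr, with 5, 13 and 5 counts in A, B and C, and the median log2 fold change of these receptors was -1.82. Their common chain Il6st was at 9.02, 16.6 and 4.13 CPM and Il11ra1, the IL-11 receptor, at 10.8, 8.32 and 2.38 CPM, so C was the lowest library for both, while Il6ra had 12, 96 and 0 counts. Of 7 ligands of that family 3 were tested and none was called by edgeR or DESeq2, nor was any at an unadjusted p under 0.05, with Ctf1 at 10.9, 9.85 and 10.1 CPM, Lif at 3.88, 7.50 and 2.83 CPM and Clcf1 at 1.86, 1.31 and 0.245 CPM.

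Of the 11 Janus kinases and STATs, 10 were tested and 1 was called lower in C, beside 5.20% of all genes tested. Their median log2 fold change was -0.30. The called gene was Stat5b, which acts downstream of growth hormone and IL-2 family receptors, with 8.14, 17.7 and 1.89 CPM in A, B and C (adjusted p = 0.0964 from edgeR, log2 fold change -2.77 with a standard error of 0.75). Stat6, the STAT of IL-4 and IL-13 signalling, was at 196, 179 and 137 CPM, and at 38.8 CPM per kilobase on average it lay above Stat3 and Jak1 per length. Among 16 inhibitors of cytokine receptor signalling, all tested, none was called by edgeR or by the DESeq2 Wald test, 4 were at an unadjusted p under 0.05 (22.3% of all genes tested were), and the median log2 fold change was -0.18. Ptpn11, a phosphatase that also relays growth factor signals, was at 63.2, 56.7 and 50.3 CPM, the phosphatase Ptpn1 at 44.1, 44.0 and 67.0 CPM, and Socs6 at 53.4, 27.9 and 86.6 CPM. Socs1, the other main SOCS inhibitor of JAK kinases, was scarce, at 1.42, 3.53 and 0.944 CPM.

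The list of IL-22 and STAT3 target genes held 50 genes, of which 4 were at 0 in every library (Batf, Lrg1, Saa1 and Saa2) and 43 were tested. Lcn2 and Irf1 were called lower in C and none was called higher, where 5.20% of all genes tested were called lower and 1.36% higher. These 2 of 43 tested genes are near that share. Irf1, an interferon response factor, was at 121, 144 and 58.2 CPM in A, B and C (adjusted p = 0.0875 from edgeR, log2 fold change -1.19 with a standard error of 0.31). The median of the list was -0.04, near that of all genes. The antimicrobial lectin Reg3g, a widely used readout of IL-22 in the gut, was at 12426, 12160 and 15814 CPM in A, B and C, and its neighbour Reg3b at 12407, 14184 and 9201 CPM, and reads of these similar genes may be divided between them with error. Neither passed the test, with log2 fold changes of 0.36 and -0.54 (adjusted p = 0.448 and 0.298 from edgeR). Dmbt1, a mucosal scavenger glycoprotein, was at 10068, 8574 and 8892 CPM. In library C, the one with 0 counts of Lcn2 and 5 of Il22ra1, Reg3g was at its highest and Reg3b at its lowest. For 78.6% of all genes tested C lay outside A and B, and a link between these genes was not tested. At a threshold of 0.05 neither Irf1 nor Stat5b was called.

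NF-kB proteins and their inhibitors, the partners of Bcl3, gave no call among 10 tested with edgeR, where 3 had an unadjusted p under 0.05 and the DESeq2 Wald test called 1 (Nfkb2), beside 22.3% and 11.9% of all genes tested. Their median log2 fold change was -0.02. Nfkbia, the main cytoplasmic inhibitor, was at 260, 345 and 322 CPM, and the subunit gene Rela at 108, 116 and 109 CPM. Nfkbiz, a nuclear relative of Bcl3, was at 111, 117 and 66.5 CPM. Of 11 fucosyltransferase genes 6 were tested and Fut1, which makes the same linkage as Fut2, was called lower in C, with 61, 168 and 0 counts in A, B and C (adjusted p = 0.0457 from edgeR). Its mean over A and B, 5.33 CPM, was 50.8-fold above the floor of 3 counts in C. Fut1 too entered the test only through A and B, where it was high. The median log2 fold change of the list was -0.89, and the 1 call among 6 tested stands beside 5.20% of all genes tested called lower. For Fut2 the log2 fold change was 0.27, as given above, and a difference between the 2 genes was not tested. Fut8, which adds core fucose, was at 152, 118 and 102 CPM, Pofut2, which fucosylates thrombospondin repeats, at 23.9, 35.9 and 22.5 CPM, and Fut11 at 19.0, 16.6 and 6.96 CPM.

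**Figure D4:**
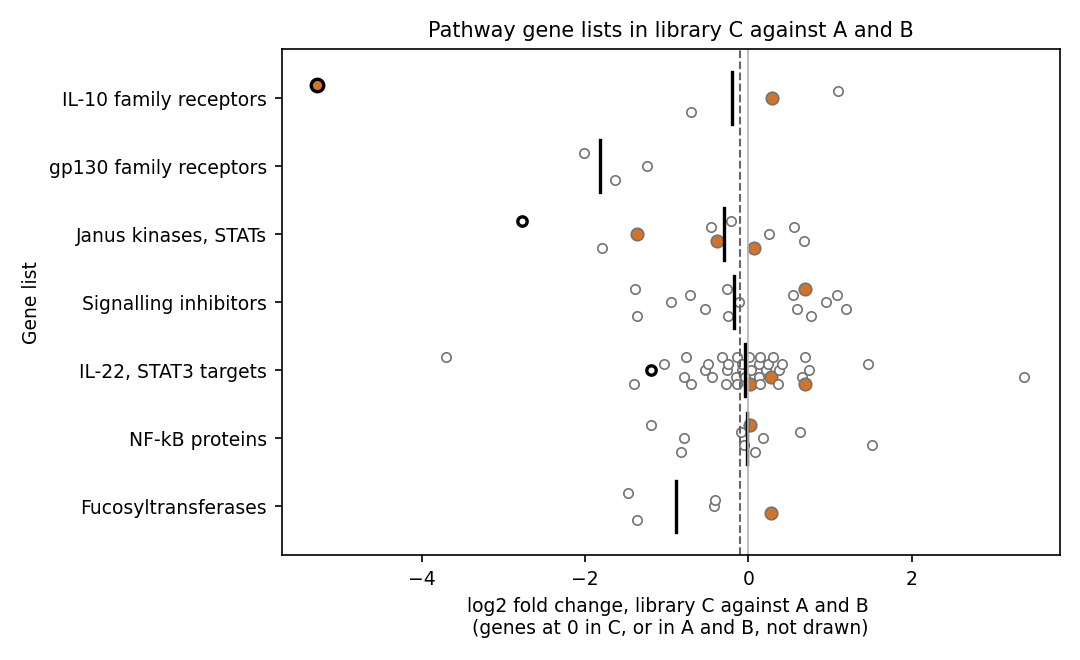
Fitted log2 fold change of library C against A and B (horizontal axis) for the tested genes of 7 lists, with orange symbols for those of the 9 genes that had counts in C, heavy outlines for an adjusted p under 0.1, black bars for list medians and a dashed line at the median of all genes (-0.10). Genes at 0 in C, or in both A and B, are left out of the drawing and kept in the medians. Il22ra1 at -5.28 and Stat5b at -2.77 lie at the left of their lists, and the targets centre on -0.04.

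The sorted cells carried the markers of epithelium. All 8 epithelial markers had at least 10 counts in every library, and the list summed to 11505, 12530 and 13248 CPM in A, B and C. Of these edgeR called none in C. At an unadjusted p under 0.05 were 2, and the DESeq2 Wald test called Krt18, beside 22.3% and 11.9% of all genes tested. The keratin gene Krt8 was at 4836, 5443 and 5848 CPM, Krt19 at 2165, 2059 and 2833 CPM, and Epcam, the surface protein used to sort epithelial cells, at 1647, 1733 and 1136 CPM. Of 13 ILC3 and lymphocyte markers 9 were at 0 in every library, among them Il22, Il23r and Ncr1. The pan-leukocyte gene Ptprc had 1 count in A and 0 in B and C, and Il7r had 1, 2 and 0 counts. Thy1, a surface protein of T cells and ILC, was at 0.874, 3.79 and 0.105 CPM in A, B and C. No gene of the list was called by edgeR or DESeq2 or had an unadjusted p under 0.05. Myeloid and B cell markers summed to 5.30, 2.70 and 8.22 CPM over 7 genes, 1 of them at 0 throughout. None was called by edgeR or DESeq2, and 1 was at an unadjusted p under 0.05, beside 22.3% of all genes tested. Ms4a1 was at 1.69, 1.53 and 4.75 CPM, Itgam at 2.62, 0 and 3.22 CPM and Cd68 at 0.765, 0.828 and 0 CPM. Stromal markers summed to 3.55, 6.84 and 0.245 CPM over 6 genes, of which 3 were at 0 throughout. Among the 2 tested, 1 was called lower in C, beside 5.20% of all genes tested. Vim, an intermediate filament gene of mesenchymal cells, was called lower in C, with 46, 135 and 0 counts (adjusted p = 0.0612 from edgeR, not called at a threshold of 0.05). Its mean over A and B was 40.0-fold above the floor of 3 counts in C, and Vim also entered the test only through A and B. Pecam1, an endothelial marker, had 19, 21 and 7 counts, and the collagen gene Col1a2 0, 1 and 0. Il22ra1, Lcn2 and Vim were each highest in B and lowest in C. Tyk2, Stat3 and Epcam had the same order, while Krt8 and Krt19 were highest in C and Pecam1, by CPM, in A. C lay below both A and B for 41.0% of all genes tested. The part of other cell types or of library quality in the result for Il22ra1 and Lcn2 was not tested.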

How the data were processed

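RNA from sorted IEC was made into SMART-Seq2 libraries. The authors trimmed reads with Trimmomatic 0.39, quantified transcripts with Salmon 0.14.1 against Ensembl transcripts of GRCm38.p6 (both versions also stand in the submitters' processing notes) and summed them to genes with tximport. Deposited values were whole-number estimated counts, 1 row per Ensembl gene, and were not rounded further. Symbols, coordinates and merged exon lengths came from GENCODE M21 (GRCm38), which named 35506 of 35824 genes, and its gene models may differ from those counted. The 318 others held at most 0.0454% of a library's counts. Total counts were 17946361 in A, 23142849 in B and 28913885 in C. Mean chi-square per gene was 77.5 between A and B, so they are not copies of 1 library.

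CPM used TMM factors over all genes. Library C was tested against A and B with edgeR 4.0.16 (R 4.3.3) after filterByExpr, with TMM factors recomputed on the genes kept and Benjamini-Hochberg adjustment over 13604 genes at 0.1, the study's threshold, leaving 1 residual degree of freedom per gene. Standard errors were taken as the log2 fold change over the root of its F statistic. Alternatives were DESeq2 1.42.0 (size factors, Wald test), plain totals, other filters, a threshold of 0.05, the longest transcript as length, and leaving out each library. The 9 genes and the lists were chosen with earlier results of these data known. Each list is given by its counts, its 3 members with the most CPM and up to 3 called members. Socs1, Il20rb, Lifr, Krt18, Nfkb2, Ptprc and Stat5a, and genes named for being at 0, fall outside that rule and were chosen after their values were seen. 1 gene of the ILC3 and lymphocyte marker list, and the list's summed level, are not reported here. Protein sequences were not used here. Tables and figures were made in Python 3.11.15 with pandas 2.3.3 and matplotlib 3.10.9, and promoter windows came from RefSeq (GRCm38.p6).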

Additional observations from a re-analysis of the deposited data

How the results depend on the processing

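Of 79 alternative results for the log2 fold changes of the 9 genes, 69 counted as kept. They kept direction and side of the threshold or, where 1 library faced another, moved by less than the standard error. Those at a threshold of 0.05 reuse the main fold change, so only the side of the threshold could change. Without library A, Jak1, Fut2 and Bcl3 turned to -0.01, -0.19 and -0.14 and still counted as kept. The mean level of Il22ra1 over A, B and C, 4.73 CPM, was 1.67 CPM without B and 7.01 CPM without C, and that of Lcn2, 7.80 CPM, was 5.06 and 11.7 CPM. Il22ra1 and Lcn2 were called with DESeq2 size factors, plain totals, no filter, the DESeq2 Wald test and TMM factors computed before the filter, an alternative chosen after seeing the data. The number of genes called, 2 in the report, was 1 with at least 10 counts in every library, which leaves Il22ra1 and Lcn2 untested, and 1 at a threshold of 0.05. Bcl3 turned from 0.02 to -0.00253 with plain totals and to -0.00650 with at least 10 counts in every library, both far inside its standard error of 0.31. Over the 122 genes of the pathway lists, not all of which were tested, 5 were called, against 14 without a filter, 8 by the DESeq2 Wald test and 2 at 0.05. Over all genes the 892 calls among 13604 tested (6.56%) became 2402 among 17457 tested without a filter. They became 1618 among 13604 (11.9%) by the DESeq2 Wald test and 276 among 13604 at 0.05. The causes of these changes were not tested. Without library A or B the comparison is 1 library against 1 and has no test. The log2 difference of C from the library that was left, with 0.5 added to each count, ranged from -5.82 to -4.06 for Il22ra1, from -1.70 to -0.92 for Tyk2 and from -0.19 to 0.96 for Fut2. Without C the comparison has no second arm. In the order per kilobase, 2 genes (Il22ra1 and Fut2) changed rank with the longest transcript as length, and between 0 and 4 genes did so when 1 library was left out. No paired analysis was possible because all 3 libraries belong to 1 group. Counts of 5 for Il22ra1 and 0 for Lcn2 in C limit the precision of both.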
